A study of Solanum lycopersicum x Solanum pennellii and Solanum lycopersicum and Solanum pennellii with 31 samples.

Results

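The small RNA (sRNA) loci of seedlings of the tomato introgression line IL2-5 were compared with those of its recurrent parent, *Solanum lycopersicum* cv. M82. Of the 219578 sRNA loci in the seedling count table, 49390 had a mean of at least 10 reads over the 2 M82 libraries and the 1 IL2-5 library, and these are described here along all chromosomes. IL2-5 seedlings carried a shifted block near the end of chromosome 2 (SL2.50). The median log2 ratio of sRNA levels to M82 was -1.55 there, against -0.22 over the rest of the genome. Outside the region from 44 to 54 Mb of that chromosome, 236 of 47878 loci (0.493%) were at least 4-fold above both M82 seedlings. A further 314 (0.656%) were at least 4-fold below both, and the changed loci lay scattered over all chromosomes. Between the M82 seedlings, 1 library against 1, 1646 of these loci (3.44%) were 4-fold higher in replicate 1 and 514 (1.07%) lower. With 1 library of the line there is no test, and every statement is a description of these libraries set beside the difference between the M82 seedlings.

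The IL2-5 library came from the aerial part of a seedling of 2 weeks, in which a segment of *Solanum pennellii* LA0716 replaces the M82 sequence in the homozygous state. The M82 libraries (replicates 1 and 2) were from 2 individual seedlings of the same age and part, without any introgression. IL1-1 and IL8-3, lines with segments elsewhere and 1 library each, are given side by side at some loci, and they share the M82 controls with IL2-5. The study's methods state that the line names of an earlier deposit of these libraries had been exchanged and that the corrected names are used in this one. The names used here are those of the labels, and the position of the chromosome 2 block was the only check made on the name IL2-5.

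An introgression line is made by crossing a cultivar with a wild relative and backcrossing until one wild segment is left. In plants most sRNA loci are sources of short interfering RNAs, which are copied from transcripts of RNA polymerase IV and lead DNA methyltransferases to the matching sequence (RNA-directed DNA methylation). Such loci are common at transposons and repeats. Because the sRNAs are read from the DNA that lies at the locus, the level at a locus can differ between parents by sequence, by copy or by epigenetic state.

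An sRNA locus with such an epigenetic difference is *H06* on chromosome 8, on which the study was centred. The M82 sequence of *H06* was 462 bases long and held 10 CG dinucleotides. The first 300 bases are shown with the 9 CG dinucleotides of that stretch in capitals. CG is 1 of the sequence contexts that can carry methylation. The stretch is shown because the sRNA locus of *H06* was among those furthest above M82 in IL2-5 outside the chromosome 2 region. The place of the sRNA locus within the sequence was not determined here. The primers of 3 other regions, which the study had chosen by criteria that included methylation and sRNA differences of these lines, mark further loci described later.
H06 of M82, first 300 bases: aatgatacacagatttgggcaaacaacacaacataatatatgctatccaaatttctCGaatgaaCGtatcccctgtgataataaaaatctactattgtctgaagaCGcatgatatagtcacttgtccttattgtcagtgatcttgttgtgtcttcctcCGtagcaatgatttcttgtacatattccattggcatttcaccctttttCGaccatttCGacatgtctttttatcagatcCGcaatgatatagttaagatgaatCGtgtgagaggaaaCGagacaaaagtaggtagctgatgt
Hyper1 fw: gttctgagacgttgggagtgat
Hyper1 rv: tcttggagatgcacacttatctca
Hyper2 fw: acaacattgttacatatcctccaca
Hyper2 rv: taacacatgctccgcacaga
Hypo3 fw: ttgatggcatccatttttcataca
Hypo3 rv: atacggttgcgtttcttgcttc

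The counts summed to 4860695 reads in M82 replicate 1, 2843012 in M82 replicate 2 and 5303281 in IL2-5, so that 1 read was worth 0.206, 0.352 and 0.189 CPM (reads scaled to the library total, here the column total). Ratios are log2 of the IL2-5 CPM over the mean M82 CPM, after 0.5 was added to each, which understates the change of loci with few reads. Outside the chromosome 2 region the median ratio was -0.22, called the common shift below. Ratios, bin medians and calls are not adjusted for it unless this is stated. Against the same M82 mean, the median there was -0.21 in IL1-1 and -0.11 in IL8-3. The M82 seedlings differed from each other by a median of 0.22 over all 49390 loci, with quartiles of -0.33 and 0.79. The 1194 loci just inside the filter, with 30 reads over the 3 libraries, had a median of -0.20, and the 1270 loci just outside it, with 29 reads, -0.18. A locus was called higher or lower where IL2-5 lay at least 4-fold beyond the more extreme of the M82 values. By that rule 262 of 49390 loci (0.530%) were higher and 608 (1.23%) were lower. Against M82 replicate 1 singly, 1.03% were higher and 2.60% lower, and against M82 replicate 2 singly, 2.68% and 3.32%. The same fold between the M82 seedlings was reached by 1700 loci higher in replicate 1 (3.44%) and 525 lower (1.06%). Differences of this size between single libraries were thus common between the M82 seedlings as well.

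The block on chromosome 2 stood apart when the loci were taken in bins of 1 Mb. Of 596 bins with at least 10 loci, 11 (1.85%) had a median outside the range of the M82 seedlings' own bin medians, which ran from -0.996 to 0.69. These limits came from bins of 10 and 11 loci, so the range is wide for bins with many loci. A bin within the range is therefore not shown to be unchanged. A run of 9 of them was contiguous, from 45 to 54 Mb on chromosome 2, with medians from -1.73 in the bin from 48 to 49 Mb to -1.35 in the bin from 46 to 47 Mb. Each held 129 to 167 loci, and in the same bins the medians of M82 replicate 1 against replicate 2 were 0.22 to 0.43. IL1-1 had medians of -0.28 to -0.07 and IL8-3 of -0.21 to 0.02 in these bins, so that neither of these lines, compared with the same M82 libraries, was shifted there. The 32 other bins of chromosome 2 ran from -0.76 to 0.26. The number of bins below the M82 range, 10 here, depended on the filter, and was 1 with all loci kept and 78 with a mean of at least 50 reads.

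The remaining pair of bins outside the M82 range held few loci. The bin from 43 to 44 Mb on chromosome 11 had a median of -1.07 over 14 loci, where IL1-1 had -0.86 and IL8-3 -0.44. The bin from 30 to 31 Mb on chromosome 9 had a median of 0.99 over 11 loci, where IL1-1 had -0.04 and IL8-3 0.63. Neither bin held a locus that was 4-fold higher or lower than both M82 seedlings. Among the 274 other bins with at least 50 loci, medians ran from -0.49 to 0.60. The highest, from 18 to 19 Mb on chromosome 11, had 53 loci, with -0.02 in IL1-1 and -0.39 in IL8-3. The bin before it, from 17 to 18 Mb, had 0.34 over 48 loci (IL1-1 -0.04, IL8-3 -0.29). The bin from 11 to 12 Mb on chromosome 6 had 0.63 over 36 loci (IL1-1 -0.06, IL8-3 -0.30). On unplaced sequence, the bin from 9 to 10 Mb had 0.64 over 27 loci (IL1-1 -0.11, IL8-3 -0.40). These bins lay within the M82 range and so were not called.

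**Figure D1:**
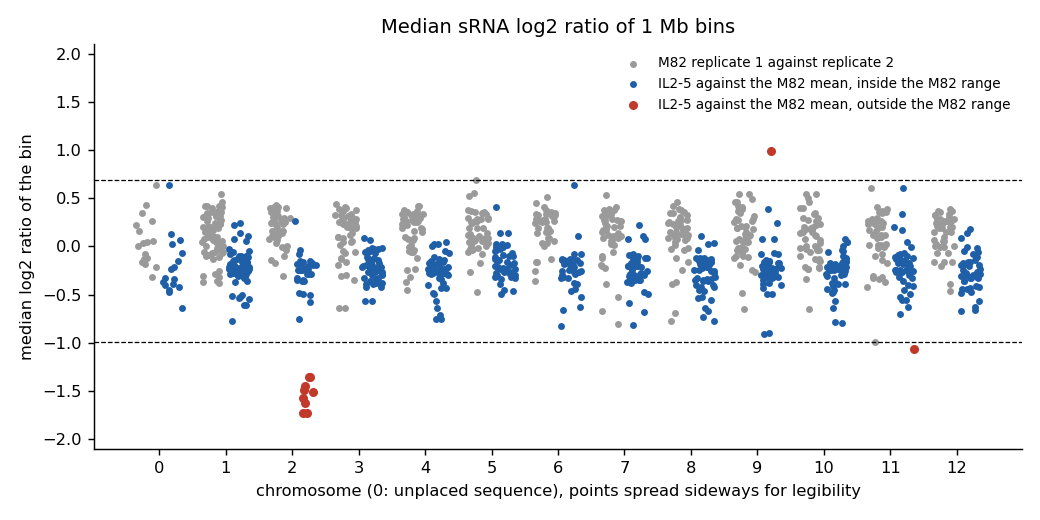
Median log2 ratio of each 1 Mb bin (vertical axis) by chromosome (horizontal axis, 0 for unplaced sequence), for IL2-5 against the M82 mean and for M82 replicate 1 against replicate 2, with dashed lines at the lowest and highest M82 bin medians of -0.996 and 0.69. The 9 red points of chromosome 2 lie between -1.73 and -1.35, below every other bin.

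The chromosome medians outside the region from 44 to 54 Mb were nearly alike. Over the 12 chromosomes they ran from -0.25 on chromosome 9 to -0.18 on chromosome 3, and chromosome 2 itself had -0.22 over 2795 loci. The M82 seedlings differed by 0.20 to 0.26 in the same sets. No chromosome was shifted over its whole length.

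The borders of the block were placed by fitting 1 segment to the loci. The segment fitted to the chromosome 2 ratios ran from 44849678 to 54122829, a length of 9273152 bp with 1352 loci. The borders were found from the same ratios that they divide, so the levels on either side are a description. The median changed from -0.18 over the 204 loci of the last 1 Mb to the left (quartiles -0.67 and 0.28) to -1.42 over the 65 loci of the first 0.5 Mb inside (quartiles -2.16 and -0.77). At the other end it changed from -1.58 over the 73 loci of the last 0.5 Mb inside to -0.29 over the 140 loci from the border to the end of the chromosome.

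The left border fell in a gap of 5161 bp. Cluster_40586, the last locus outside (44844329 to 44844516), had 17 and 7 reads in M82 and 14 in IL2-5. Cluster_40592, the first inside (44849678 to 44850182), had 158 and 72 reads in M82 but 31 in IL2-5, while IL1-1 had 145 and IL8-3 221. Its pooled M82 level was 5.11 times that of IL2-5 (95% exact interval 3.50 to 7.69, counting error only). Its neighbours inside followed with ratios of -0.65 (Cluster_40599) and -1.84 (Cluster_40611), and the neighbours outside had -0.40 (Cluster_40584) and 0.62 (Cluster_40583).

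The right border fell in a gap of 1425 bp, and there single loci told less. Cluster_45771, the last inside (54122588 to 54122829), had 23 and 8 reads in M82 and 9 in IL2-5, a log2 ratio of -0.96. Cluster_45773, the first outside (54124255 to 54124934), had 50 and 18 reads in M82 and 26 in IL2-5, a log2 ratio of -0.71. The intervals of their pooled M82 to IL2-5 ratios, 1.102 to 5.66 and 1.13 to 2.95, overlap, so the exact place rests on the loci further in and out. Against M82 replicate 2 alone the right border was fitted at 54165721. Inside, Cluster_45766 had 24 and 12 reads in M82 and 2 in IL2-5 (-2.53). Outside, Cluster_45776 had 13 and 14 reads in M82 and 29 in IL2-5 (0.47).

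**Figure D2:**
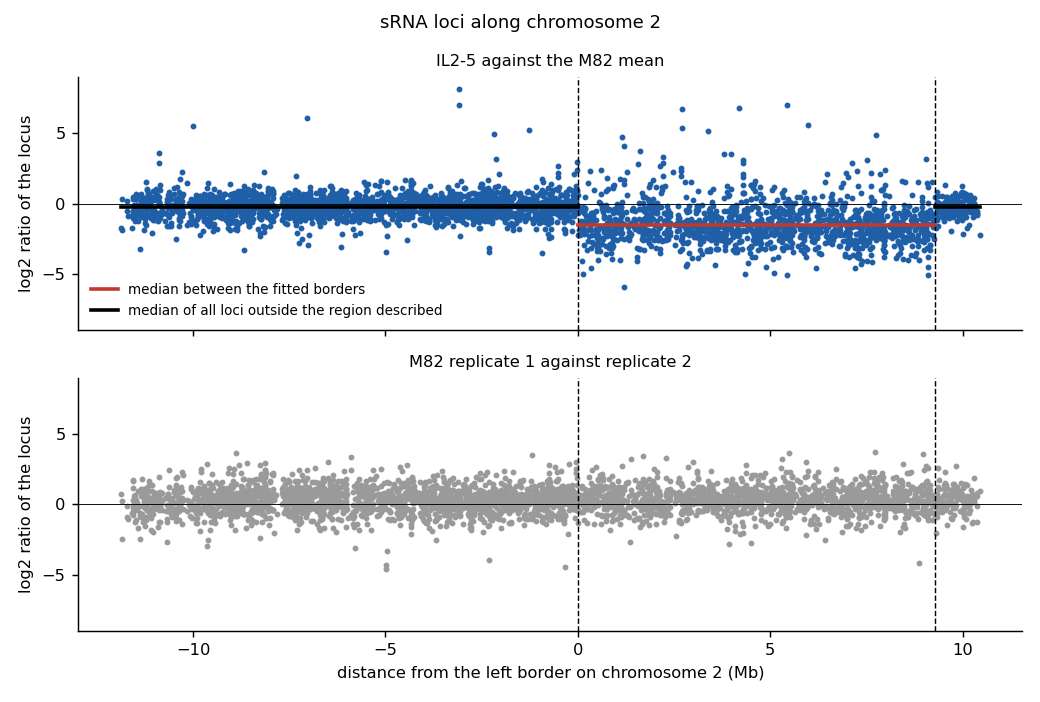
Log2 ratio of each sRNA locus (vertical axis) by its distance from the left border on chromosome 2 in Mb (horizontal axis), above for IL2-5 against the M82 mean and below for M82 replicate 1 against replicate 2, with dashed lines at the fitted borders. In IL2-5 the loci between the borders have a median of -1.55 (red line) against -0.22 outside (black line), and the M82 pair shows no step.

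Within the block the lower level was broad but not uniform. Relative to the common shift of -0.22 the median log2 ratio was -1.33, a 2.52-fold lower level, with quartiles of the unadjusted ratio at -2.27 and -0.67. Of the 1352 loci, 296 were lower than both M82 seedlings by 4-fold or more (21.9%, against 1.23% of all loci), 23 were higher (1.70%, against 0.530%) and 1033 were neither. For the whole region from 44 to 54 Mb the rule gave 294 lower (19.4%) and 26 higher (1.72%) of 1512. Against M82 replicate 1 alone it gave 510 (33.7%) and 42 (2.78%), and against M82 replicate 2 alone 377 (24.9%) and 50 (3.31%). Between the M82 seedlings, 11 of the 1512 were lower in replicate 1 (0.728%) and 54 higher (3.57%). The single-library counts of higher loci were thus no larger than that between the M82 seedlings. A further view counts distance from the common shift. There, 832 loci (61.5%) lay more than 2-fold below it and 427 (31.6%) lay within 2-fold of it on either side. Loci at or above it numbered 202 (14.9%), some of which are also counted as within 2-fold. Outside the block 8.77% lay more than 2-fold below and 83.7% within 2-fold. In bulk tissue, fewer cells with the sRNA and less sRNA per cell cannot be told apart, and neither can a lower level of sRNAs from the *S. pennellii* segment and a poorer placement of its reads on the Heinz sequence.

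The share of all sRNA reads that fell in the block was lower too. The block held 3.20% of the reads of M82 replicate 1 (95% exact binomial interval 3.18 to 3.21) and 3.62% of M82 replicate 2 (3.599 to 3.64). In IL2-5 it held 1.81% (1.797 to 1.82), while in IL1-1 it held 3.65% and in IL8-3 3.48%. A single locus, Cluster_44826, made up 9.49% and 20.5% of the block reads in M82 and 40.9% in IL2-5. Without it the shares were 2.90% in each M82 seedling, 2.86% in IL1-1, 2.78% in IL8-3 and 1.08% in IL2-5. These intervals cover counting error only.

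**Figure D3:**
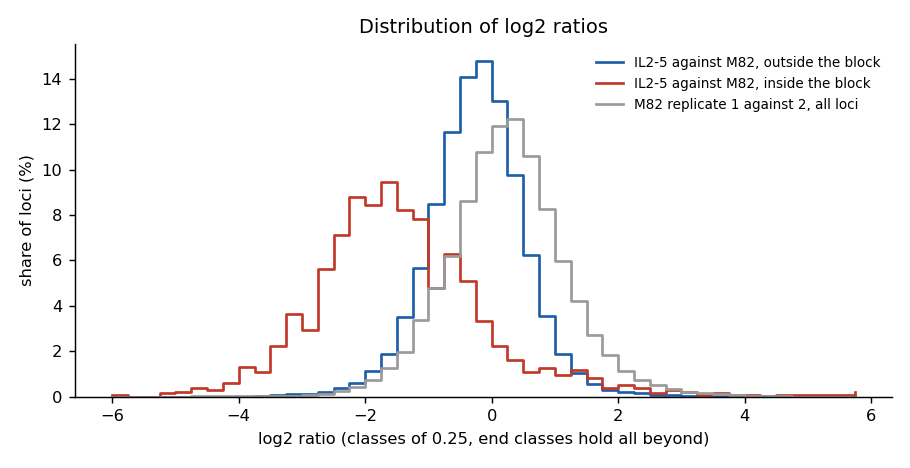
Share of loci in percent (vertical axis) by log2 ratio in classes of 0.25 (horizontal axis), for IL2-5 against the M82 mean inside and outside the block and for M82 replicate 1 against replicate 2 over all loci. The block curve is broad with a median of -1.55, the outside curve has its median at -0.22 and the M82 pair at 0.22.

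Loci that were abundant in M82 had lower ratios inside the block. Up to 4 CPM in M82, the 310 loci of the block had a median of -0.48, and 9 of them (2.90%) were lower by the 4-fold rule. From 4 to 10 CPM the median was -1.63 over 511 loci with 19.96% lower, and from 10 to 50 CPM it was -1.96 over 447 loci with 32.4% lower. Above 50 CPM it was -2.20 over 84 loci, of which 40 (47.6%) were lower. Outside the block the same classes had medians of 0.06, -0.33, -0.38 and -0.35 with at most 1.01% lower. The added 0.5 CPM draws ratios of low loci towards 0, and a locus with few M82 reads passed the filter only where IL2-5 held enough. By construction both raise the ratios of the lowest class inside the block. The classes were also cut on the M82 level that is the denominator of the ratio, which by itself lowers the ratios of higher classes. How much of the fall inside the block comes from this was not tested.

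Length made less difference. The block medians were -0.89 for the 37 loci of up to 50 bp and between -1.58 and -1.53 for the longer classes. The share of loci lower by 4-fold ran from 18.6% for loci of 200 to 400 bp to 29.7% for those of up to 50 bp.

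**Figure D4:**
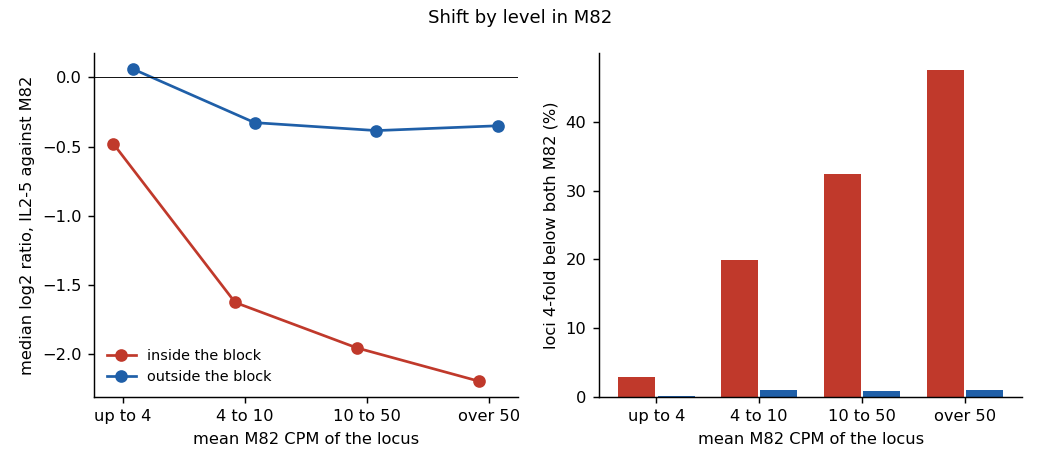
Median log2 ratio (left) and percent of loci 4-fold below both M82 libraries (right) by the mean M82 CPM of the locus, inside (red) and outside (blue) the block. Inside, the median goes from -0.48 in the lowest class to -2.20 in the highest and the share from 2.90% to 47.6%, while outside the share stays at 1.01% or less.

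Few loci of the block were without reads in IL2-5. IL2-5 had no read at 24 of the 1352 loci of the block. When the filter was set on the M82 libraries alone, chosen with the values known, 53 of 1444 block loci (3.67%) held no read in IL2-5, against 114 of 46119 outside (0.247%). At the same 1444 loci IL1-1 held no read at 6 and IL8-3 at 4. In the other direction, 266 loci of the block, filtered or not, held no read in either M82 seedling, and 22 of these held at least 10 reads in IL2-5. This count was not made outside the block or in IL1-1 and IL8-3, so nothing is read from it.

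Of the loci in the region from 44 to 54 Mb, Cluster_41307 (46045488 to 46045696) was furthest below M82. It held 193 and 196 reads in the M82 seedlings, 218 in IL1-1 and 146 in IL8-3, but 2 in IL2-5. IL2-5 alone stood apart there, and the pooled M82 level was 134 times that of IL2-5 (95% exact interval 36.8 to 1110). Cluster_43027 (49196377 to 49196688) had the same form, with 121 and 83 reads in M82, 131 in IL1-1, 185 in IL8-3 and 2 in IL2-5.

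At another pair of loci IL2-5 held no read. Cluster_43648 (50292079 to 50292172) had 99 and 37 reads in M82, at least 31.2-fold above IL2-5 at a floor of 3 counts over the library. Cluster_45681 (53951458 to 53951558) had 93 and 39 reads, at least 30.3-fold above. IL1-1 and IL8-3 held 32 to 54 reads at these loci, so the reads were missing from IL2-5 alone. Cluster_40710 (44990293 to 44990343) differed from these, because it held 103 and 62 reads in M82 but 0 in IL1-1, 1 in IL2-5 and 1 in IL8-3. There all 3 lines were low.

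Of the 5 most abundant loci of the region, 3 were lower by like amounts, and none of the 5 passed the 4-fold rule. Cluster_40482 was lower by less, and Cluster_44826 was not lower than the M82 mean. Cluster_43969 (50905476 to 50905745) had 841 and 1842 CPM in M82 and 296 in IL2-5, a log2 ratio of -2.18. Cluster_45677 (53947707 to 53947815) had 756 and 1629 CPM in M82 and 260 in IL2-5, a log2 ratio of -2.19. At both loci IL2-5 lay below each M82 seedling, which differed from each other by -1.13 and -1.11 on the log2 scale. Cluster_43972, which starts 3279 bp beyond Cluster_43969, had 419 and 948 CPM in M82 and 141 in IL2-5 (-2.27). Its reads stood in a nearly constant proportion to those of Cluster_43969, which held 1.94 to 2.09 times as many in every library. The ratios of Cluster_43969 and Cluster_43972 are therefore uncertain as separate measurements.

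Cluster_44826 (52477458 to 52477827) was not lower than the M82 mean. It had 3034 and 7413 CPM in M82 and 7397 in IL2-5, with 8115 in IL1-1 and 7206 in IL8-3, so that IL2-5 was level with M82 replicate 2 and with the other lines. Its reads were 0.172 to 0.174 times those of Cluster_113389 on chromosome 6 (42851773 to 42851880) in all 5 libraries. Its count is therefore uncertain as a separate measurement, and whether the loci share reads was not tested. The remaining abundant locus of the region, Cluster_40482 (44686187 to 44686263), lies left of the border. It had 922 and 521 CPM in M82 and 285 in IL2-5 (-1.34), with 925 in IL1-1 and 607 in IL8-3.

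A minority of loci in the block were higher in IL2-5. Of the 23 higher loci, 20 had an M82 mean below 10 reads and so passed the filter through IL2-5, so that the filter set their direction. They held from 30 to 1843 reads in IL2-5. Cluster_43631 (50271797 to 50271833), only 37 bp long, had 16 and 3 reads in M82, 5 in IL1-1 and 21 in IL8-3 but 1843 in IL2-5, a pooled ratio of 141 (95% exact interval 90.0 to 235).

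Other loci of the block were read in IL2-5 alone. Cluster_42938 (49047581 to 49047718) held 298 reads in IL2-5 and 0 in each of the other 4 libraries, at least 144-fold above M82 at a floor of 3 counts over the M82 libraries. Cluster_42130 (47543876 to 47544166) held 281 and its neighbour Cluster_42128 (47543135 to 47543412) held 107, again with 0 elsewhere. Cluster_43932 (50826466 to 50826509) held 155 reads in IL2-5 against 1 and 0 in M82, 0 in IL1-1 and 1 in IL8-3.

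Outside the region, the changed loci lay scattered. The 236 higher loci (0.493% of 47878) fell into 175 of the 800 bins with any locus, and the 314 lower loci (0.656%) into 230, with at most 5 of either kind in a bin. Under TMM scaling, which moved the common shift to -0.03, these counts were 321 higher and 219 lower, so which direction held more loci turned with the scaling. Against M82 replicate 1 alone the counts were 468 and 772, and against M82 replicate 2 alone 1275 and 1261. By chromosome, the higher share ran from 0.309% on chromosome 5 to 0.867% on chromosome 11, and the lower share from 0.512% on chromosome 6 to 0.927% on chromosome 11. Between the M82 seedlings, where 1 library is set against 1, 1646 of these loci were higher in replicate 1 (3.44%) and 514 lower (1.07%). Of the higher loci, 169 had an M82 mean below 10 reads and passed the filter only through IL2-5, and 30 of them held no read in either M82 seedling.

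The changed loci were shorter than the rest. The median length was 150.5 bp for higher and 160 bp for lower loci, against 232 bp for all 47878. Loci under 51 bp made up 16.9% of the higher and 8.28% of the lower ones, against 4.01% of all. The higher loci together held 9258 and 4314 reads in the M82 libraries and 81487 in IL2-5, and the lower ones 43926 and 32905 against 5945. IL1-1 had a median log2 ratio of 0.89 at the higher and -1.22 at the lower loci, against -0.21 over all 47878, and IL8-3 had 1.04 and -1.53, against -0.11. The loci were chosen with the M82 libraries that these ratios share, which by itself moves them the same way, so nothing is read from them.

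Of the higher loci outside, the locus in *H06* had the largest ratio, 8.30 against 8.14 at Cluster_38683 on chromosome 2. This order turned with the settings. With 0.1 added in place of 0.5, or against M82 replicate 1 alone, Cluster_38683 had the larger ratio. Cluster_145814 on chromosome 8 (54487405 to 54487649) held 1 and 0 reads in M82 and 1008 in IL2-5, or 190 CPM. IL1-1 held 1185 reads there and IL8-3 1364. M82 held 1 read in all, so the pooled ratio of 1464 is loose (95% exact interval 262 to 57891).

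The other regions that the study had tested added 5 loci of the 49390, 1 of which lies in the block. Cluster_215987 in Hyper1 on chromosome 12 (62124935 to 62125109) held 3 and 2 reads in M82 and 1391 in IL2-5, with 973 in IL1-1 and 1493 in IL8-3. Cluster_149224 in Hyper6 on chromosome 8 held 1 and 1 reads in M82 and 140 in IL2-5, and Cluster_79739 in Hyper7 on chromosome 4 held 9 and 0 in M82 and 162 in IL2-5. All 3 lines were high at these loci, with 124 to 173 reads of Hyper6 and Hyper7 in IL1-1 and IL8-3. Cluster_116135 in Hypo3 on chromosome 6 (47125388 to 47125497) was low instead. It held 91 and 35 reads in the M82 seedlings but none in IL1-1, IL2-5 or IL8-3, at least 28.9-fold lower in IL2-5. The study chose these regions for methylation that differed between these lines and M82 and, among other criteria, for differential sRNAs in the same seedling libraries, so their direction is no independent evidence.

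Hyper2 lies inside the chromosome 2 block. Its locus, Cluster_42481 (48226523 to 48226689), held 0 reads in both M82 seedlings, 94 in IL2-5, 143 in IL1-1 and 91 in IL8-3. In CPM these were 17.7, 30.5 and 16.0, so that this locus was read in IL2-5 at a level between those of the other lines, while most loci around it were lower.

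Most of the other loci furthest above M82 were high in IL2-5 alone, though they were picked for their IL2-5 ratio. All of the 10 outside loci furthest above M82 had an M82 mean below 10 reads and passed the filter only through IL2-5. The filter thus set their direction. On chromosome 2, left of the block, Cluster_38683 (41760214 to 41760372) held 744 reads in IL2-5 and 0 in every other library, at least 360-fold above M82 at a floor of 3 counts over the M82 libraries. Its neighbour Cluster_38681 (41759545 to 41759853) held 345 and 0. The 3 loci listed between 41759545 and 41760372 together held 1111 reads in IL2-5 and none in the other 4 libraries. No bin around them was shifted.

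On chromosome 9, 4 of the higher loci stood together. They lay within 24941 bp, from 1413704 to 1438644. Cluster_154135 had 4 and 0 reads in M82 and 935 in IL2-5, Cluster_154141 had 9 and 0 against 549, Cluster_154147 had 7 and 3 against 1128, and Cluster_154155 had 13 and 9 against 1394. In IL1-1 and IL8-3 these 4 loci held between 2 and 16 reads each, within reach of M82. All 21 loci listed in that interval together had 24.7 and 18.3 CPM in M82, 774 in IL2-5, 26.7 in IL1-1 and 32.5 in IL8-3.

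The largest groups after that had 3 loci each. Those from 53085358 to 53089887 on chromosome 8, with all 10 loci there, had 10.7 and 8.79 CPM in M82 and 91.5 in IL2-5, with 22.2 in IL1-1 and 15.8 in IL8-3. Those from 2703152 to 2706236 on chromosome 11 had 36.003 and 36.6 CPM in M82 and 249.8 in IL2-5, with 127 in IL1-1 and 236 in IL8-3. The first group was highest in IL2-5, and the second was near the same level in IL8-3. In all, 36 of the 236 higher loci lay within 20 kb of another higher one, in 16 groups, and 22 of the 314 lower loci lay in 11 pairs.

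Single loci completed the list of the 10 largest ratios. Cluster_134147 on chromosome 7 (65921383 to 65921498) held 4 and 0 reads in M82 and 1042 in IL2-5, with 2 in IL1-1 and 0 in IL8-3. Cluster_140793 on chromosome 8 (23231751 to 23231929) held 4 and 2 against 1047, with 4 and 0 in the other lines. On chromosome 11, Cluster_198030 (45238023 to 45238182) held 3 and 2 against 615, and Cluster_196582 (33088576 to 33088676) held 0 and 1 against 323. At each of these loci IL1-1 and IL8-3 held at most 8 reads, so IL2-5 stood alone.

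**Figure D5:**
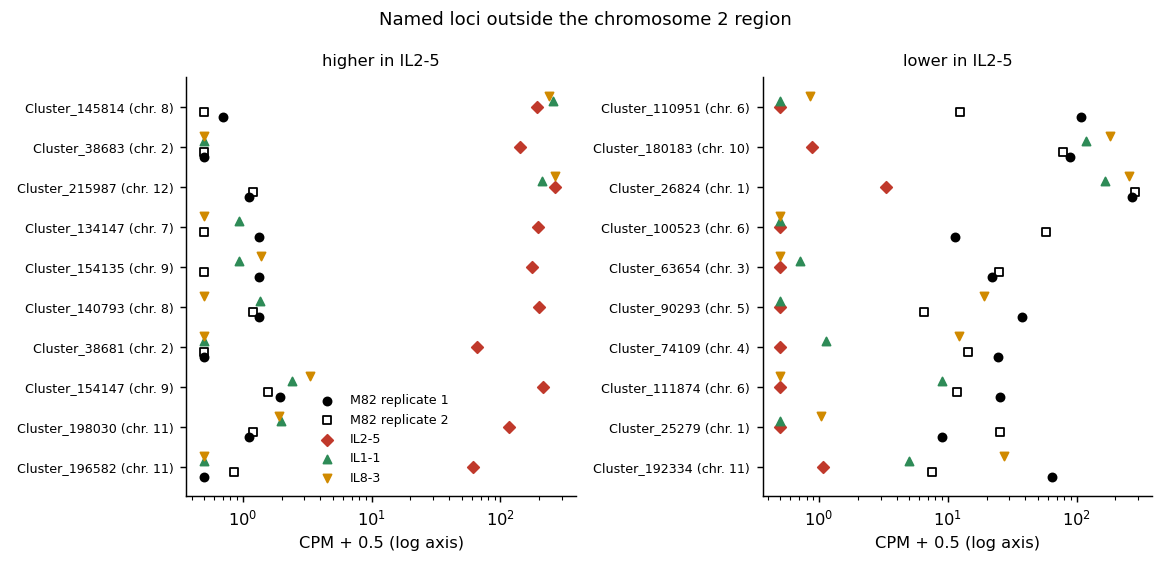
CPM + 0.5 on a log axis (horizontal) in the 5 seedling libraries for the 10 loci outside the chromosome 2 region with the highest (left) and lowest (right) ratios in IL2-5, each row a locus with its chromosome. IL1-1 and IL8-3 lie with IL2-5 at Cluster_145814 (H06) and Cluster_215987 (Hyper1) and with M82 at the other 8 loci on the left, while on the right their place varies from locus to locus.

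The loci furthest below M82 outside the region were of several kinds. At Cluster_180183 on chromosome 10 (51308286 to 51308368), 430 and 220 reads in M82, 548 in IL1-1 and 1036 in IL8-3 stood against 2 in IL2-5, a pooled M82 level 224 times higher (95% exact interval 61.7 to 1851). At Cluster_26824 on chromosome 1 (95452704 to 95452747), 1299 and 801 reads in M82, 778 in IL1-1 and 1438 in IL8-3 stood against 15 in IL2-5, 96.4 times higher (58.3 to 173). At these loci IL2-5 was the only low library.

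At other loci more than one line was low. Cluster_100523 on chromosome 6 (8696 to 8777) held 53 and 162 reads in M82 and 0 in all 3 lines. Cluster_63654 on chromosome 3 (65530702 to 65530766) held 104 and 69 in M82, 1 in IL1-1 and 0 in IL2-5 and IL8-3. Cluster_25279 on chromosome 1 (92707380 to 92707493) held 41 and 71 in M82, 0 in IL1-1 and IL2-5 and 3 in IL8-3. These 3 loci were at or near 0 in every line.

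At some of these loci the M82 seedlings themselves were far apart. Cluster_110951 on chromosome 6 (39116303 to 39116347) held 523 and 34 reads in M82, a log2 difference of 3.12 in CPM, with 0 in IL2-5 and IL1-1 and 2 in IL8-3. Cluster_192334 on chromosome 11 (7309145 to 7309274) held 308 and 20 in M82, a log2 difference of 3.08, with 3 in IL2-5. Cluster_90293 on chromosome 5 (9773330 to 9773516) held 182 and 17 in M82, a log2 difference of 2.55, with 0 in IL2-5 and IL1-1 and 106 in IL8-3. At these 3 loci M82 replicate 2 was the nearer to IL2-5.

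Cluster_74109 on chromosome 4 (38174963 to 38175087) held 116 and 39 reads in M82, 3 in IL1-1, 67 in IL8-3 and 0 in IL2-5. Cluster_111874 on chromosome 6 (40480509 to 40480592) held 120 and 32 in M82, 40 in IL1-1 and 0 in IL8-3 and IL2-5. In each of these, one of the other lines was low with IL2-5 and the other was not.

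The most abundant loci of all were higher in IL2-5 than in the M82 mean, though none passed the 4-fold rule. Cluster_113389 on chromosome 6 had 17425 and 43005 CPM in M82 and 42713 in IL2-5, so that the M82 seedlings differed more from each other than IL2-5 did from the second. Cluster_289 on unplaced sequence had 14596 and 10504 CPM in M82 and 22936 in IL2-5, and Cluster_54453 on chromosome 3 had 8326 and 10464 against 13781. Cluster_143187 on chromosome 8 (7610 and 9336 against 21220 CPM) and Cluster_196407 on chromosome 11 (5912 and 7267 against 16117 CPM) had log2 ratios of 1.32 and 1.29. IL1-1 was also above the M82 mean at each of these most abundant loci, with log2 ratios from 0.10 to 0.91. IL8-3 was below it at Cluster_54453 (-0.80) and above it at the others, with 0.06 to 0.45. Whether these loci bear on the median of -0.22 over the loci outside the chromosome 2 region was not tested.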

How the data were processed

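Members and lists were chosen with earlier results of these data known. The deposited values were raw read counts per sRNA locus: per the study's methods, the authors mapped the seedling libraries to the Heinz genome SL2.50 and clustered them with ShortStack under default parameters. The submitters' processing notes name Trim Galore, Bowtie 1.1.1 and DESeq2 1.8.1. Of the 5 libraries, M82 replicate 2 was the shallowest. No table column was without a sample. Counts were scaled to CPM of column totals (Python 3.11.15, pandas 2.3.3, scipy 1.17.1), with a mean count of at least 10, a pseudocount of 0.5, a 4-fold rule, bins of 1 Mb with at least 10 loci and a floor of 3 counts. Intervals are 95% exact and cover counting error only. Borders minimised the squared deviation of one segment on chromosome 2. The step was run on simulated data with an evenly shifted block, which does not measure how exactly the borders here are placed. Named loci were, outside the region, the 10 largest changes per direction; inside it, the 5 largest per direction and the 5 most abundant; 3 loci beside each border; loci in regions tested for methylation by the study; and the 5 most abundant of all. Neighbours of named loci and the pairs in constant proportion were added after their values were seen. Alternatives were other scalings (TMM factors of edgeR 4.0.16, DESeq2 1.42.0 size factors), filters, pseudocounts, folds, bins and single M82 libraries. The tables of *H06* reads in other tissues were not used. Neither an annotation nor a genome was used here, so no gene is named.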

Additional observations from a re-analysis of the deposited data

How the results depend on the processing

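No paired analysis was possible because IL2-5 has 1 library and no test was made. The filter on M82 alone and the fitted block in place of 44 to 54 Mb were chosen with the values known. The left border kept its place in all but 2 alternatives, 44845369 without a filter and 49200001 by the longest run of 0.1 Mb bins. The right border was 54010409 with a mean count of at least 50 and 51700000 by that run, and 54124934 to 54165721 with a single M82 library. The block median was -1.16 with a pseudocount of 2, -0.69 without a filter and -1.94 with a mean count of at least 50. The common shift was -0.027 with TMM factors and 0.00026 with DESeq2 size factors, and -0.29 to -0.041 with a single M82 library. Bins below the M82 range, 10 as reported, numbered 1 without a filter, 78 with at least 50 reads and 35 as bins of 0.5 Mb. Bins above it, 1 as reported, numbered 2 with a pseudocount of 2, 7 with TMM factors, 6 with DESeq2 size factors, 0 without a filter, 0 with at least 50 reads, 0 with the filter on M82 alone, 2 as bins of 0.5 Mb, and 2 to 3 with a single M82 library.

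Higher and lower loci numbered, over all chromosomes, outside 44 to 54 Mb and inside it, in this order. Higher loci, 262, 236 and 26 as reported, were 154, 138 and 16 with a pseudocount of 2, 581, 517 and 64 without a filter, 104, 95 and 9 with at least 50 reads, 70, 67 and 3 with the filter on M82 alone, 1298, 1231 and 67 at 2-fold, and 97, 83 and 14 at 8-fold. Lower loci, 608, 314 and 294 as reported, were 178, 66 and 112 with a pseudocount of 2, 192, 66 and 126 with at least 50 reads, 3909, 3156 and 753 at 2-fold, and 125, 48 and 77 at 8-fold. A pseudocount of 0.1 gave 955 lower loci over all chromosomes and 566 outside, and no filter gave 518 outside. With a single M82 library, higher loci ran from 510 to 1325, 468 to 1275 and 42 to 50, and lower loci from 1282 to 1638, 772 to 1261 and 377 to 510. Outside the region, DESeq2 size factors gave 322 higher and 216 lower and the filter on M82 alone 67 and 425. Over all chromosomes, TMM factors gave 355 and 462, DESeq2 size factors 358 and 453, and no filter 581 and 865. Of 36 named loci that passed the 4-fold rule, 32 passed with a pseudocount of 2 and 35 with either set of factors, where Cluster_40592 did not. With the filter on M82 alone, 18 of the 36 were left. All of those passed, and none of them was a higher locus.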
